A study of Mus musculus with 2 samples.

Results

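The mouse CD209 C-type lectin cluster comprised 7 genes here, Cd209a to Cd209g, out of 22322 genes in the table of the series. The members were selected by gene symbol, through the Ensembl gene ID of each row, and the cluster was chosen with its values in view, because the ratio of Cd209f between both libraries was among the largest. The level and the ratio of each member are therefore given as a description, and nothing is tested on them. mRNA was measured in 1 library of liver macrophages from FABP7 KO mice and 1 library from WT mice. The KO animals were global Fabp7 knockouts, on a background given as C57BL/6 in the labels and C57BL/6 J in the methods, and the WT animals were their littermates, all male and between 6 and 8 weeks of age, and the field for genotype in the labels says knockdown once where the rest of the labels and the methods say knockout. Mice of both groups had received 500000 MC38 cells, which derive from a colon carcinoma of the mouse, in 100 µl by injection into the spleen, and the macrophages were taken from the metastatic liver on day 10 by selection for F4/80, a surface protein of mouse macrophages. How many mice were pooled for a library is not stated in the labels or the methods. Without replicates the spread between mice is unknown, and no p-value was computed.

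C-type lectin receptors bind sugars through a domain that usually needs calcium. CD209, also called DC-SIGN, recognises mannose-rich and fucose-bearing glycans on microbes and on other cells, and carries what it binds into dendritic cells and macrophages. In the mouse the gene has been copied several times, and the copies are known as DC-SIGN and the SIGNR proteins. The best studied are Cd209a, found on dendritic cells, and Cd209b (SIGN-R1), which marginal zone macrophages of the spleen use to take up bacterial polysaccharide.

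Values are FPKM, fragment counts scaled to gene length and library total. The number of fragments per library was estimated from the step between low values at about 18050000 in the KO library and 18100000 in the WT library, so both gave nearly equal precision. From this depth and the length of the longest coding transcript, each level was also turned into an estimated number of fragments with an exact Poisson interval (95%), which covers counting error only. Fabp7, the deleted gene, stood at 0.69 FPKM in the KO library and at 354 FPKM in the WT library (log2 ratio -7.71). Kupffer cell markers were high in both, with Clec4f at 4156 FPKM in the KO library and 3188 FPKM in the WT library. A gene that reached 1 FPKM in either library is called measured, and over the 10770 measured genes the median log2 ratio of KO over WT was 0.004. These ratios use a pseudocount of 1 FPKM, which understates the change of low genes.

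Cd209f (ENSMUSG00000051906) carried most of the signal of the cluster. Its level was 28.8 FPKM in the KO library and 1.96 FPKM in the WT library. These values corresponded to about 617 fragments in the KO library (569 to 668) and 42 fragments in the WT library (30.3 to 56.8). At the length of all exons joined, in place of the longest coding transcript, the estimates were 1034 fragments in the KO library and 71 in the WT library. The level was 14.7-fold higher in the KO library, with a counting interval of 10.8 to 20.6, and the log2 ratio was 3.33. No measured gene had a higher log2 ratio, which is the value for which the cluster was chosen.

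Cd209g (ENSMUSG00000079168), which lies next to Cd209f on the opposite strand, stood at 5.32 FPKM in the KO library and 0.38 FPKM in the WT library. About 112 fragments in the KO library (92.2 to 135) stood against 8 in the WT library (3.45 to 15.8), or 347 in the KO library and 25 in the WT library at the length of all exons joined. The level was 14-fold higher in the KO library, with an interval of 6.88 to 33.3. Its log2 ratio of 2.20 ranked 9 among the measured genes. The fold of Cd209g lay within the interval of Cd209f, although its level was lower in both libraries.

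**Figure D1:**
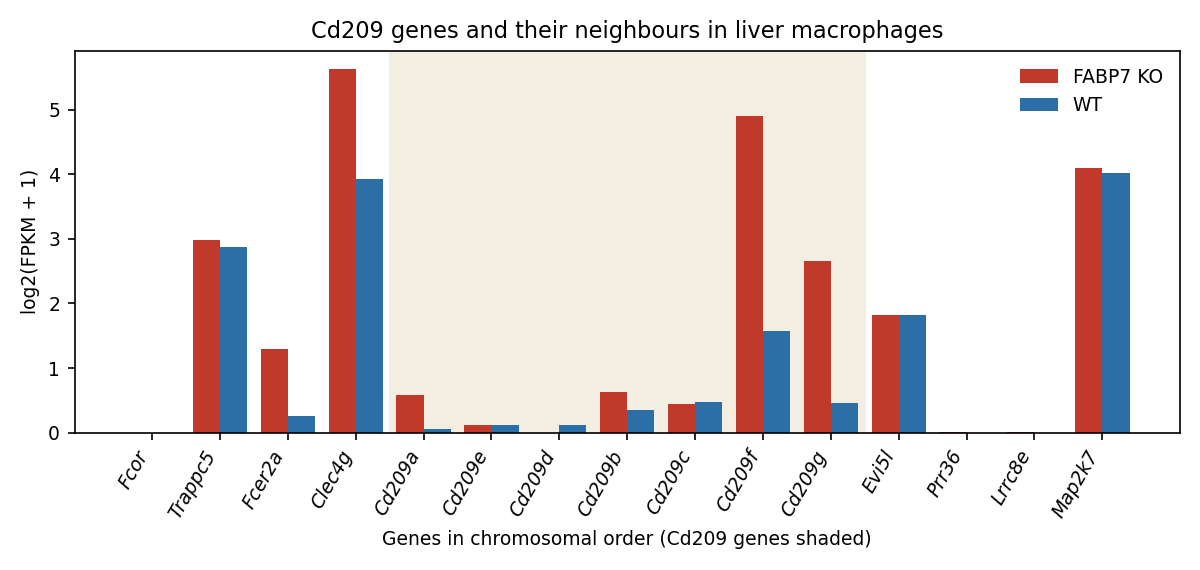
Levels of the 7 Cd209 genes and of 4 named genes on each side in chromosomal order, with the KO library left of the WT library for each gene, as bars on an axis of log2(FPKM + 1) and with the Cd209 genes shaded. Cd209f (28.8 FPKM in KO, 1.96 in WT) and Cd209g (5.32 in KO, 0.38 in WT) stand apart from the other 5 members, which are below 1 FPKM in both libraries, and Clec4g (48.5 in KO, 14.2 in WT) is the tallest neighbour.

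Both genes also share sequence before their start. The 250 bases upstream of the RefSeq start on GRCm38.p6 are shown for Cd209f and Cd209g, the only members that reached 1 FPKM in a library. Their values may share reads, as described below. The Cd209f stretch lies at chr8:4105765-4106014 on the minus strand and the Cd209g stretch at chr8:4134486-4134735 on the plus strand. Both are written 5′ to 3′, with the longest identical run of 154 bases in capitals.
Cd209f: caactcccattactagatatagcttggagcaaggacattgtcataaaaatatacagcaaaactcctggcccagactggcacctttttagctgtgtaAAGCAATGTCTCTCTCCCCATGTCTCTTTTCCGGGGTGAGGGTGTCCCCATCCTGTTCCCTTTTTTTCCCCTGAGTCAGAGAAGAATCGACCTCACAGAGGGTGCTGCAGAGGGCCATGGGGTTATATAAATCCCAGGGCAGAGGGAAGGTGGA
Cd209g: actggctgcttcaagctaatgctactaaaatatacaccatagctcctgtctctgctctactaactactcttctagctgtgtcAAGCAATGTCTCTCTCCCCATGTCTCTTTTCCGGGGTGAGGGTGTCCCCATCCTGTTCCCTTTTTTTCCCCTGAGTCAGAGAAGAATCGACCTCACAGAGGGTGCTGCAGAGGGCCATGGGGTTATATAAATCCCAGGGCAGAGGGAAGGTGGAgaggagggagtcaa
The run ended at position -1 from the start of Cd209f and at -15 from that of Cd209g. Over 205 aligned bases the upstream stretches were 94.1% identical, whereas the longest run shared by any other pair of members was 7 to 12 bases.

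A search for short motifs on both strands of the same 250 bases described what the shared run holds. Positions are those of the first base of a match. TATAAA, a core promoter motif, was found in it at -29 of Cd209f and at -43 of Cd209g, and also once at -184 of Cd209a, compared with 12.4% of 32851 RefSeq promoters. TGAGTCA, the consensus of AP-1, was found at -83 of Cd209f and -97 of Cd209g and in no other member, compared with 4.46% of the promoters. GAGGAA, the core bound by the macrophage factor PU.1, matched in Cd209d alone (23.3% of promoters), and the STAT6 site, TTC and GAA with 4 bases between them, matched in Cd209e alone (5.85% of promoters). The element bound by PPAR and RXR pairs, AGGTCA repeated after 1 base, was in no member and in 0.0335% of promoters. A match shows only that these letters are present.

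The other 5 members were close to the limit of detection. Cd209a (ENSMUSG00000031494) was listed at 0.49 FPKM in the KO library and 0.04 FPKM in the WT library. These are about 13 fragments in the KO library (6.92 to 22.2) and 1 in the WT library (0.0253 to 5.57), a ratio of 13 with an interval of 1.96 to 554. The interval is wide because the WT value rests on 1 fragment, so the size of the difference was not resolved at this depth.

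Cd209b (ENSMUSG00000065987) was at 0.55 FPKM in the KO library and 0.27 FPKM in the WT library, about 20 and 10 fragments. The fold of 2.01 had an interval of 0.896 to 4.80, so a difference was not detectable at this depth. Cd209c (ENSMUSG00000040165, SIGNR2) was at 0.36 FPKM in the KO library and 0.39 FPKM in the WT library, with a fold of 0.912 (0.347 to 2.36). Cd209e (ENSMUSG00000040197, SIGNR4) was at 0.09 FPKM in both libraries, about 3 fragments each. Cd209d (ENSMUSG00000031495, SIGNR3), a receptor that binds mycobacteria, was listed at 0 in the KO library and at 0.08 FPKM in the WT library, which is about 1 fragment. In the KO library the order of levels below Cd209g was Cd209b, Cd209a, Cd209c, Cd209e and Cd209d, and the first 3 of these had overlapping counting intervals.

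**Figure D2:**
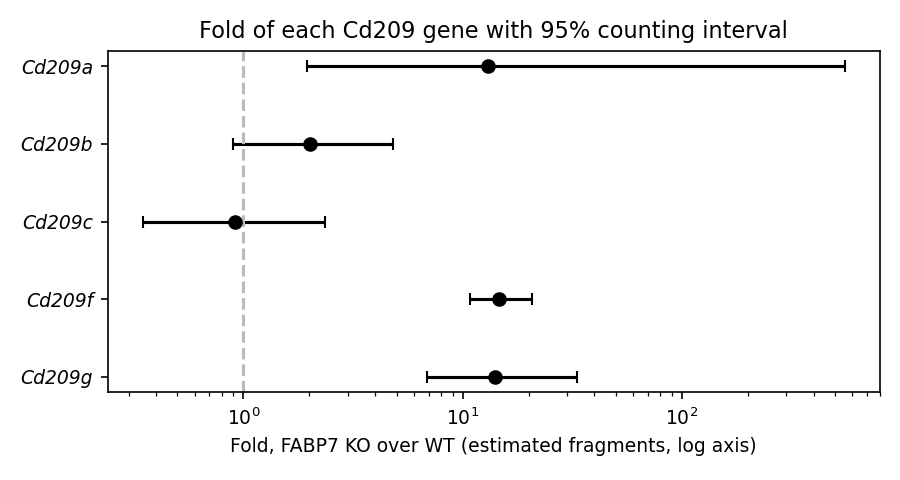
Ratio of KO over WT on a log axis for the Cd209 genes with more than 3 estimated fragments in a library, with bars for the 95% counting interval. Cd209f (14.7) and Cd209g (14) lie well above 1, Cd209a (13) has a bar from 1.96 to 554, and the bars of Cd209b and Cd209c cross 1.

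Of the 7 members, 2 reached 1 FPKM in a library, and both had a log2 ratio of at least 1, a size rule that 2.21% of the measured genes met upward (238 genes) and 2.95% downward (318 genes). No member met it downward, and 5 members were below the floor. Since the cluster was chosen on this contrast, nothing is read from these counts. Cd209f passed the floor in both libraries, while Cd209g passed it only through the KO library.

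**Figure D3:**
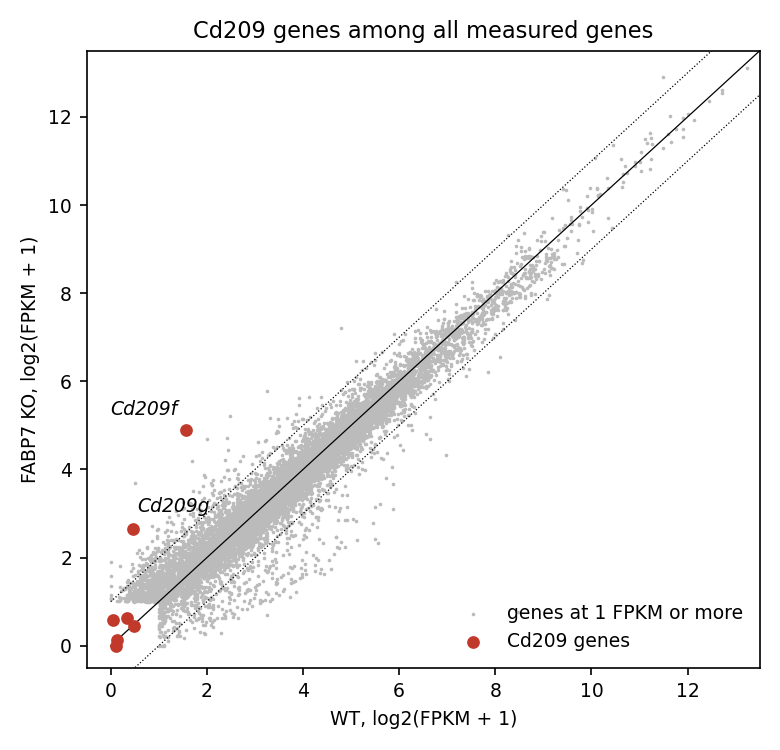
Each measured gene at log2(FPKM + 1) in the WT library (x axis) and the KO library (y axis), with the 7 Cd209 genes in red, Cd209f and Cd209g named, and lines at equal levels and at a log2 ratio of 1 in each direction. Both named genes lie above the upper dotted line, as do 2.21% of the 10770 genes, and the other 5 lie near the origin.

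Summed over the 7 members the level was 35.6 FPKM in the KO library and 3.21 FPKM in the WT library, an 11.1-fold difference (log2 ratio 3.12). Cd209f made up 80.9% of the sum in the KO library and 61.1% in the WT library, and Cd209g made up 14.9% in the KO library and 11.8% in the WT library. Without Cd209f the sum was 6.81 FPKM in the KO library and 1.25 FPKM in the WT library. Without Cd209f and Cd209g, a sum added after the values were seen, the remaining 5 members came to 1.49 FPKM in the KO library and 0.87 FPKM in the WT library. About 46 fragments in the KO library and 26 in the WT library stood behind this remainder, and its fold of 1.77 had an interval of 1.07 to 2.99. The higher sum in the KO library thus lay mostly in Cd209f and Cd209g.

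Cd209f and Cd209g are close copies, and reads from one can be counted for the other. Their coding sequences in GENCODE M21 were 90.9% identical over 570 aligned bases, whereas the other pairs of members were between 69.7% and 80.5% identical. Of all stretches of 100 bases in the Cd209f transcript, 29.2% also occurred in that of Cd209g, and of those in Cd209g 29.6% occurred in Cd209f. The longest shared block had 416 bases, at positions 195 to 610 of the Cd209f transcript and 194 to 609 of that of Cd209g. Cd209a, Cd209b, Cd209d and Cd209e shared no stretch of 100 bases with any other annotated transcript, and Cd209c shared 6.75% of its own, none with another member.

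The ratio of the Cd209f level to the Cd209g level was 5.42 in the KO library and 5.16 in the WT library. Cd209g thus stood at 18.5% of Cd209f in the KO library and 19.4% in the WT library. Both shares are below the 29.2% of Cd209f stretches that also match Cd209g, and how reads that match more than 1 gene were counted is not known from the labels or the methods. The part of Cd209f reads in the Cd209g values was not tested, so the fold of Cd209g is uncertain. The sum of both genes was 34.1 FPKM in the KO library and 2.34 FPKM in the WT library (14.6-fold). If each shared read was counted once, this sum does not depend on the split beyond the difference in length. It does depend on the counting if such reads were dropped or counted for both genes.

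Other coding stretches differ enough to tell the copies apart. The 60 aligned coding bases with the most differences are shown because reads from here differ between the copies. They are bases 522 to 581 of the Cd209f coding sequence and bases 339 to 398 of that of Cd209g, written 5′ to 3′, with the 18 differing bases in capitals.
Cd209f: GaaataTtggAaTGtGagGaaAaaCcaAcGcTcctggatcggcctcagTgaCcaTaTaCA
Cd209g: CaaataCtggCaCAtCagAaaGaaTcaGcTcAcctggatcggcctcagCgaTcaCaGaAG
The deposited values give 1 number per gene, so levels over this stretch alone were not analysed here.

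**Figure D4:**
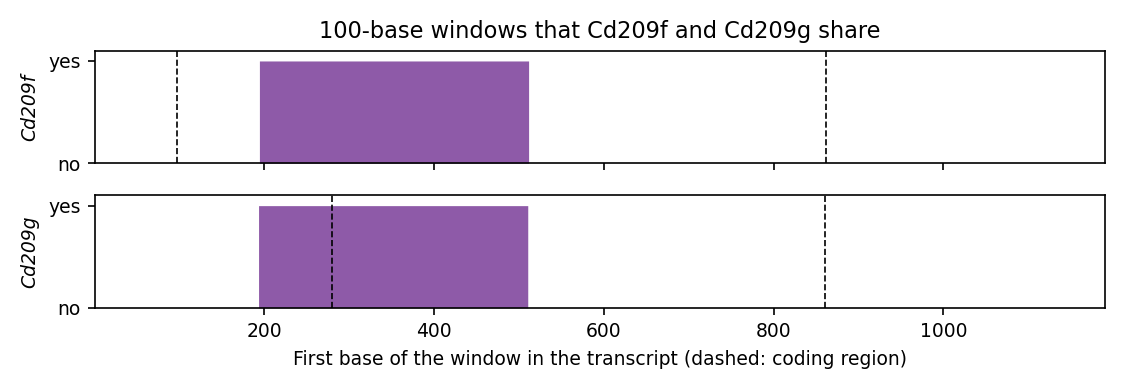
Position in the transcript of the stretches of 100 bases that occur exactly in both Cd209f (top) and Cd209g (bottom), by their first base, with dashed lines at the start and end of the coding region. Each transcript has 317 such stretches, all in 1 block that lies within the coding region of Cd209f and starts before that of Cd209g.

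The cluster lies on chromosome 8 with Cd209a, Cd209e, Cd209d, Cd209b, Cd209c and Cd209f in this order on the minus strand and Cd209g on the plus strand. The nearest gene on the side of Cd209a is Clec4g (LSECtin), a C-type lectin of liver sinusoidal endothelial cells, which was at 48.5 FPKM in the KO library and 14.2 FPKM in the WT library (log2 ratio 1.70). Next to it, Fcer2a (CD23), the low-affinity IgE receptor of B cells, was at 1.45 FPKM in the KO library and 0.20 FPKM in the WT library (log2 ratio 1.03). Beyond the lectins the levels were nearly equal. Trappc5, a subunit of a vesicle tethering complex, was at 6.93 FPKM in the KO library and 6.32 FPKM in the WT library. On the side of Cd209g, Evi5l was at 2.52 FPKM in the KO library and 2.53 FPKM in the WT library, and Map2k7, a kinase upstream of JNK, was at 16.1 FPKM in the KO library and 15.2 FPKM in the WT library. Fcor, Prr36 and Lrrc8e were at or below 0.01 FPKM in both libraries. Cd209f and Cd209g thus stood at the end of the cluster away from Clec4g, and the 5 members of low level lay between.

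Among 33 other C-type lectin receptors, 25 were measured. Of these, 3 (12%) were at least 1 higher in log2 ratio, against 2.21% of all measured genes, and 0 were lower, against 2.95%. The median log2 ratio of the 25 was 0.35, against 0.004 for all measured genes, and 22 of them were above 0. Without the floor the median over the 33 was 0.15. The 3 were Clec4g and Fcer2a, given above, and Clec14a, an endothelial lectin, at 2.97 FPKM in the KO library and 0.78 FPKM in the WT library. Of these, Fcer2a and Clec14a reached the floor only through the KO library. The receptors with the highest levels differed less. Mrc1, the mannose receptor, was at 483 FPKM in the KO library and 344 FPKM in the WT library (log2 ratio 0.49). Clec7a (dectin-1), which binds fungal beta-glucan, was at 443 FPKM in the KO library and 400 FPKM in the WT library (0.15). Clec4f, the Kupffer cell lectin given above, had a log2 ratio of 0.38. Clec9a, which binds actin filaments of dead cells, was at 25.8 FPKM in the KO library and 15.4 FPKM in the WT library (0.71). In level, Cd209f in the KO library was close to Clec9a, and in the WT library it was far below it.

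**Figure D5:**
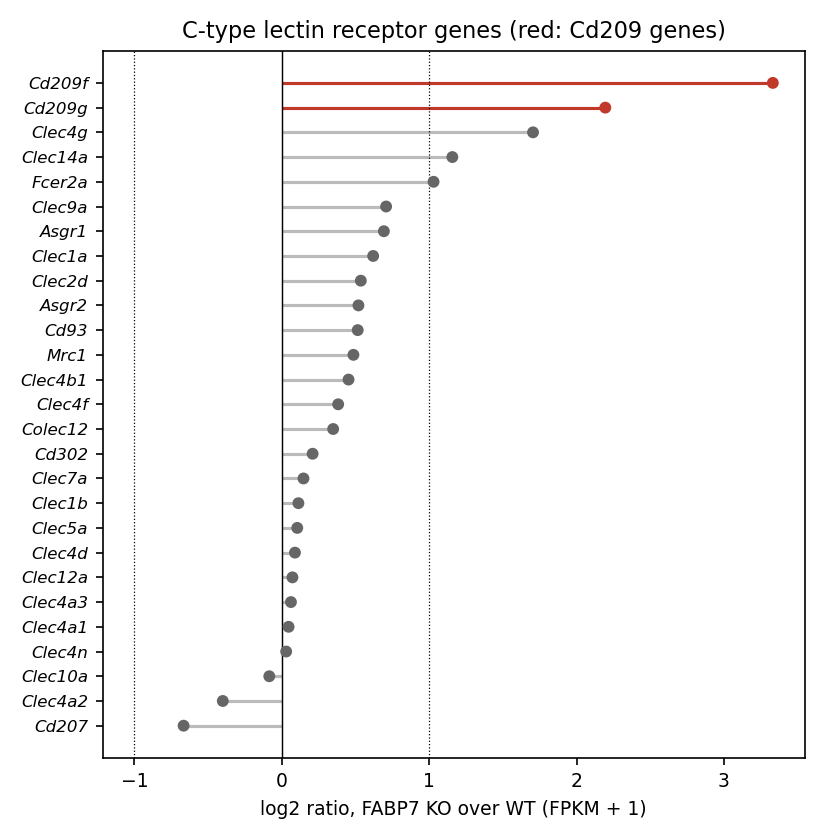
Log2 ratio of KO over WT for the 25 measured receptors of the list of other C-type lectins and for Cd209f and Cd209g, in order of the ratio, with dotted lines at log2 ratios of 1 and -1. Cd209f (3.33) and Cd209g (2.20) are followed by Clec4g (1.70), Clec14a and Fcer2a, and 3 receptors lie below 0.

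Genes known to act downstream of C-type lectin receptors had log2 ratios between -0.49 and 0.78. Of 35 such genes 34 were measured, and their median log2 ratio was 0.05, where the 10770 measured genes had 0.004. None of the 34 changed by 1 or more in log2 ratio. Few genes did so in the whole table, 2.21% upward and 2.95% downward, so a count of 0 in a list this short says little. Human DC-SIGN signals through a complex that holds LSP1, KSR1 and CNKSR1. Lsp1 was at 22.4 FPKM in the KO library and 32.0 FPKM in the WT library (log2 ratio -0.49), Ksr1 was at 4.45 FPKM in the KO library and 3.25 FPKM in the WT library (0.36), and Cnksr1 was below the floor in both. Src, a kinase, had the highest ratio, at 4.26 FPKM in the KO library and 2.06 FPKM in the WT library (0.78). The NF-kappaB subunit Relb was at 14.3 FPKM in the KO library and 8.99 FPKM in the WT library (0.62). Bcl3 was at 16.9 FPKM in the KO library and 11.4 FPKM in the WT library (0.53). The adaptors Tyrobp and Fcer1g, which carry signals of other lectins, had log2 ratios of 0.05 and 0.01, and the small GTPase Rhoa had -0.02.

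A list of ligands and partners of CD209 proteins held 16 genes, of which 15 were in the table and measured. There were 2 (13.3%) at least 1 higher in log2 ratio, against 2.21% of all measured genes, and 0 lower, against 2.95%. The median of the list was 0.28. St6gal1, which adds sialic acid to glycans such as that of IgG, was at 35.0 FPKM in the KO library and 11.6 FPKM in the WT library (1.51). Fcgr2b, the inhibitory IgG receptor, was at 34.3 FPKM in the KO library and 15.0 FPKM in the WT library (1.14). It is also a marker on the list of liver sinusoidal endothelial cells given below. Complement C1q is a partner of Cd209b in the spleen, and its chain C1qa was at 2887 FPKM in the KO library and 2224 FPKM in the WT library (0.38). The other chains C1qb (0.28) and C1qc (0.25) had like log2 ratios. C4b was at 589 FPKM in the KO library and 356 FPKM in the WT library (0.73), and C3 at 98.4 FPKM in the KO library and 63.0 FPKM in the WT library (0.63). Of the 15 genes 3 lay below 0. They were the adhesion ligands Icam2, at 24.1 FPKM in the KO library and 29.98 FPKM in the WT library (-0.30), and Ceacam1, at 10.4 FPKM in the KO library and 12.8 FPKM in the WT library (-0.27), and complement factor Cfb, at 276 FPKM in the KO library and 403 FPKM in the WT library (-0.54).

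IL4, acting through STAT6, raises human DC-SIGN in monocyte-derived cells, so a list of this axis was set beside the members. Of its 26 genes 19 were measured, with a median log2 ratio of 0.10. Past the size rule upward was 1 (5.26%), against 2.21% of all measured genes, and downward 0, against 2.95%. The 1 was Klf4, a transcription factor of alternative activation, at 11.3 FPKM in the KO library and 2.80 FPKM in the WT library (1.69). The kinase Jak3 was at 12.8 FPKM in the KO library and 7.47 FPKM in the WT library (0.70), and the chitinase-like Chil3 was at 2.64 FPKM in the KO library and 1.47 FPKM in the WT library (0.56). Irf4, a factor induced by IL4, was at 3.29 FPKM in the KO library and 1.92 FPKM in the WT library (0.56). The IL4-responsive genes with the highest levels besides Mrc1 lay below 0, with Ccl24 at -0.31 and Tgm2 at -0.26.

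In bulk libraries, more or fewer cells of a type and more or less RNA per cell cannot be told apart. Counts past the size rule in the marker lists stand beside 2.21% upward and 2.95% downward over all measured genes. Macrophages that carry LYVE1 and line vessels or the liver capsule were followed with 20 markers, of which 19 were measured and 1 was past the size rule, upward, against 3 under either other scaling of the KO library and 5 with a pseudocount of 0.1 FPKM. The 1 was Ltc4s, the leukotriene C4 synthase, at 25.0 FPKM in the KO library and 3.02 FPKM in the WT library (2.69). The ficolin Fcna was at 2146 FPKM in the KO library and 1081 FPKM in the WT library (0.99), and Lyve1 itself at 7.36 FPKM in the KO library and 3.24 FPKM in the WT library (0.98). In contrast Cd163, a scavenger receptor of the same list, was at 123 FPKM in the KO library and 216 FPKM in the WT library (-0.80). The list summed to 5307 FPKM in the KO library and 3906 FPKM in the WT library, which is 1.36-fold. Of its 19 measured markers 14 were above 0 and 5 below, with a median log2 ratio of 0.35. Lyve1 is also a marker on the list of liver sinusoidal endothelial cells.

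The dendritic cell list, whose cells carry Cd209a, had 13 of 22 markers measured, of which 9 were above 0, with a median log2 ratio of 0.47. Past the size rule were 2, both upward. Fscn1, the actin bundler of mature dendritic cells, was at 5.02 FPKM in the KO library and 1.58 FPKM in the WT library (1.22), and Dpp4 (CD26) at 4.13 FPKM in the KO library and 1.5 FPKM in the WT library (1.04). The list summed to 374 FPKM in the KO library and 395 FPKM in the WT library. Among its defining markers, Clec9a was higher in the KO library, at the levels given above. The transcription factor Zbtb46 was at 1.64 FPKM in the KO library and 0.51 FPKM in the WT library. The receptor Flt3, below the floor, was at 0.27 FPKM in the KO library and 0.09 FPKM in the WT library. Xcr1 was lower, at 0.50 FPKM in the KO library and 1.20 FPKM in the WT library (-0.55). The other measured markers below 0 were Wdfy4 (-0.43), Bst2 (-0.19) and Irf8 (-0.05). None of the 22 markers was at 0 in both.

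The marginal zone list, whose cells carry Cd209b, had 11 markers measured, of which 7 were above 0, with a median log2 ratio of 0.05. Past the size rule was 1, the chemokine Cxcl12, at 12.7 FPKM in the KO library and 4.51 FPKM in the WT library (1.31). The scavenger receptor Marco was at 714 FPKM in the KO library and 1377 FPKM in the WT library (-0.95), and the list summed to 9576 FPKM in the KO library and 10834 FPKM in the WT library. Kupffer cell markers summed to 19458 FPKM in the KO library and 19261 FPKM in the WT library over 18 genes, Fabp7 included. Of these genes Fabp7 alone was past the size rule, and Xlr3a was at 0 in both. Single markers differed in both directions, with 10 of 17 measured above 0 and 7 below. Id3 (0.65), Vsig4 (0.43) and Clec4f (0.38) were higher, while Marco (-0.95) and Cd163 (-0.80) were lower.

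Markers of several other cell types were higher in the KO library, and other lists were mixed or lower. For liver sinusoidal endothelial cells, which carry the neighbouring Clec4g, 10 of 15 markers were past the size rule upward and 14 were above 0. Their list summed to 390 FPKM in the KO library and 212 FPKM in the WT library (1.84-fold). Of 15 neutrophil markers 9 were measured, with 7 past the rule upward and 9 above 0. They summed to 120 FPKM in the KO library and 42.3 FPKM in the WT library (2.83-fold). Of 11 stellate cell markers 7 were measured, with 3 past the rule upward and 7 above 0 (2.72-fold). Of 12 B and plasma cell markers 6 were measured, with 3 past the rule upward and 6 above 0 (2.53-fold). Of 8 erythroid markers 4 were measured, all past the rule upward (2.51-fold). Of 22 hepatocyte markers, all measured, 5 were past the rule upward and 21 above 0 (1.95-fold). Some genes in these counts, such as Camp, Cd79a and Fcer2a, reached the floor only through the KO library. Without the floor, the median log2 ratio of the neutrophil list was 0.89, against 1.59 with it. It was 0.62 against 1.01 for the B and plasma cell list and 0.69 against 1.19 for the erythroid list. Monocyte markers were mixed, with 7 of 13 measured above 0, a median log2 ratio of 0.22, Nr4a1 past the size rule upward and Plac8 and Ms4a4c downward. They summed to 582 FPKM in the KO library and 1141 FPKM in the WT library, of which Plac8 alone gave 427 FPKM in the KO library and 908 FPKM in the WT library. T and NK cell markers were mixed as well, with 5 of 8 measured of 13 listed above 0 and a median log2 ratio of 0.38. Among them Icos was past the size rule upward and Gzmb downward. All 16 genes of cell division were lower (173 FPKM in the KO library and 782 FPKM in the WT library). The part of any of these cell types in the Cd209 values was not tested.

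The genes whose pair of levels was most like that of Cd209f were found by the distance between log2(FPKM + 1) values over the 2 libraries, which share each library's depth. The nearest was Ltc4s, at a distance of 0.48. It was followed by S100a9, a calcium-binding protein of neutrophils, at 25.3 FPKM in the KO library and 4.31 FPKM in the WT library (distance 0.86). Nckipsd was at 36.2 FPKM in the KO library and 4.62 FPKM in the WT library (0.98). Sh2b2, an adaptor of receptor kinases, was at 20.7 FPKM in the KO library and 4.45 FPKM in the WT library (0.99), and the chemokine Ccl3 at 17.7 FPKM in the KO library and 4.18 FPKM in the WT library (1.05). Each of the 5 had a higher WT level than Cd209f.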

How the data were processed

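mRNA of F4/80-selected liver macrophages was measured in 1 FABP7 KO and 1 WT library. The authors deposited FPKM values with 2 decimals for 22322 genes, and the table of both libraries equalled the tables of the single libraries. Among the tools listed by the submitters are TopHat2 2.1.1 and Bowtie2 2.2.8. Build, annotation, counting tool and read length are not given in the sources used. Symbols came from GENCODE M21 for 22267 IDs, and 55 IDs had none.

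Log2 ratios of KO over WT used a pseudocount of 1 FPKM, a floor of 1 FPKM in at least 1 library and a size rule of 1 in either direction. No test was made on 1 library per genotype. Depth was estimated from low FPKM values multiplied by transcript length, as the depth that brought these values nearest to whole fragments. At that depth 90.8% of 238 values in the KO library and 90.0% of 270 in the WT library lay within 0.15 of a whole fragment. For a depth fixed in advance 30% would do so by chance, but this depth was fitted to the same values. Fragments used the longest coding transcript, whose length may differ from the authors', and folds have exact Clopper-Pearson intervals. The steps were tested on simulated data.

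The text names the 7 members, the 4 nearest named genes on each side, the 4 largest ratios and the 3 highest levels of a list (not all are printed), and the 5 genes nearest to Cd209f. Flt3, Xcr1, Xlr3a, Ksr1, Cnksr1, Icam2, Ceacam1 and Cfb were named outside this rule, after their values were seen. Members and lists were chosen with earlier results of these data known. Upstream sequences are from RefSeq, GRCm38.p6, and all 7 members matched. Alternatives were other pseudocounts, floors, size rules and scalings. The software was SciPy 1.17.1, Biopython 1.88, Matplotlib 3.10.9, NumPy 2.4.6 and pandas 2.3.3 under Python 3.11.15.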

Additional observations from a re-analysis of the deposited data

How the results depend on the processing

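Cd209f and Cd209g remained the only members past the size rule, and both higher, under each alternative run, with log2 ratios of 3.33 to 3.81 for Cd209f and 2.20 to 3.50 for Cd209g. With a pseudocount of 0.1 FPKM the log2 ratio of Cd209a was 2.08, past the size but still under the floor. The log2 ratio of the summed members was 0.41 without Cd209f and Cd209g, an alternative chosen after seeing the data. With a pseudocount of 0.1, 1006 genes were past the size rule and 562 were higher. With a floor of 5 FPKM 143 genes were higher. With a size rule of 1.5, 189 genes passed, 50 higher and 139 lower. The list of other C-type lectins had 6 genes past the rule with a pseudocount of 0.1, 1 with a floor of 5 FPKM and 1 with a size rule of 1.5. The signalling list had 1 with a pseudocount of 0.1, and the list of ligands had 1 with a size rule of 1.5. Dividing the KO values by 0.974 or 0.965, which raises them slightly, changed none of the calls on members. No member above the floor changed direction. With a floor of 5 FPKM the median log2 ratio turned to -0.02 for the list of IL4 and STAT6 (0.10 with a floor of 1) and to -0.96 for the monocyte list (0.22 with a floor of 1). With a size rule of 1.5 no hepatocyte, B and plasma cell, erythroid or dendritic cell marker passed. A sum with Cd209h was not run, since this gene was not analysed here. No paired analysis was possible because each genotype has 1 library. Depth limits Cd209a to Cd209e, which rest on at most 20 fragments per library, and the lack of more libraries limits each comparison.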
